A study of Homo sapiens with 6 samples.

Results

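The genes described here are 50 protein-coding genes of the splicing machinery, measured in K562 cells from which one of a pair of ultra-conserved elements (UCEs) had been deleted. They are named by symbol, a rule that holds no measured value, although the list was drawn up with earlier results of these data known. All 50 were found among the 52088 entries of the count table. Of them, 34 encode proteins of the small nuclear ribonucleoproteins (snRNPs) or their partners U2AF1 and U2AF2. A further 7 encode SR proteins, 5 encode heterogeneous nuclear ribonucleoproteins (hnRNPs), and 4 encode other proteins that act in or beside splicing (PRPF38B, THOC2, ACIN1 and CDC40). All 50 passed the filter on low counts, so none was left out of the comparisons.

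Introns are removed from pre-mRNA by the spliceosome, which is assembled anew on each intron from the U1, U2, U4, U5 and U6 snRNPs. Each snRNP is a small nuclear RNA (snRNA) bound by proteins: U1, U2, U4 and U5 carry a ring of Sm proteins, and U6 carries a related ring of LSm proteins. U1 marks the start of an intron, U2 binds near its end with the help of U2AF, and the U4/U6 and U5 snRNPs join as one tri-snRNP before the spliceosome is activated. SR proteins mostly favour the use of nearby splice sites, hnRNPs coat pre-mRNA and often oppose it, and the levels of both help to decide which exons are kept.

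K562 is a human erythroleukaemia line. The Control libraries came from K562 cells whose genotype is given as WT. PAX6_Ta KO cells lacked the UCE PAX6_Tarzan, and PBX3_Cl KO cells lacked the UCE PBX3_Claudia. Each deletion was made by a plasmid carrying Cas9 and a pair of guide RNAs, transfected cells were selected with puromycin, and single clones were picked, so a KO group stands for clonal cells and the effects of cloning and of the deletion cannot be told apart. Each group had 2 libraries of total RNA. The study speaks of KO clones in the plural and, in a figure legend, of the PAX6_Ta KO clone in the singular. Both libraries of a knockout share a column name, pAX6_2 or pBX_11, whose number is not explained. No source used here states the clone or culture of each library. The p-values thus measure the spread between these libraries only, which may be technical. The deleted elements are non-coding, and counts per gene do not measure them, so the knockout labels could not be checked in these values.

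The 6 libraries held 45912044 to 60908470 counts. All 12 erythroid markers were detected in every library, with summed levels of 6131 to 11133 CPM (counts scaled to a common library size), whereas the summed myeloid and lymphoid markers did not exceed 19.7 and 10.6 CPM, and MS4A1, LUM, KRT5 and KRT14 were at 0 throughout. The erythroid sum was 7195 and 6131 CPM in Control, 11133 and 9471 in PAX6_Ta KO and 9457 and 8037 in PBX3_Cl KO. The epithelial sum, nearly all of it EPCAM, was 42.3 and 45.6 CPM in Control, 3.70 and 2.13 in PAX6_Ta KO and 26.8 and 21.9 in PBX3_Cl KO. The fibroblast sum, which in Control was nearly all COL1A2, was 49.0 and 133 CPM in Control, 23.0 and 23.1 in PAX6_Ta KO and 3.22 and 3.23 in PBX3_Cl KO. COL1A1 went the other way in PAX6_Ta KO, with 224 and 207 counts against 8 and 7 in Control (edgeR adjusted p = 4.88e-05). The mRNAs of the mitochondrial genome summed to 15047 and 14680 CPM in Control, 19670 and 14089 in PAX6_Ta KO and 25599 and 24032 in PBX3_Cl KO, where 12 of 13 lay above 0. The part of these differences in the results below was not tested. In bulk RNA, fewer cells of one kind and less RNA per cell cannot be told apart.

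The splicing genes took 1.40% and 1.41% of all counts in Control, 1.21% and 1.28% in PAX6_Ta KO, and 1.24% and 1.3% in PBX3_Cl KO. The shares of both knockouts lay below those of Control without overlap, although they are shares of raw counts, are set mainly by the most abundant members, and in PBX3_Cl KO stood beside the higher mitochondrial sums given above, whose part was not tested. Per length, as CPM for each kilobase of the annotated canonical transcript (RPKM), the highest Control mean was that of HNRNPA1, which packages nascent transcripts, at 421 RPKM (465 and 378 in the libraries). SNRPD2, an Sm protein, followed at 319 (323 and 314), below both HNRNPA1 libraries. SNRNP70 (236), SNRPC (231), HNRNPC (225), HNRNPU (219), SNRPB (217) and U2AF2 (209) came next, and in this stretch each gene overlapped its neighbour between libraries. The lowest Control means were those of LSM8 (2.58 RPKM), LSM6 (4.33) and SRSF10 (6.21). The value of LSM8 rests on a canonical transcript of 12384 bases, and a shorter transcript would give a higher one: its CPM was 28.0 and 36.0 in Control, 30.8 and 31.5 in PAX6_Ta KO and 37 and 29.8 in PBX3_Cl KO, with no called difference.

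**Figure D1:**
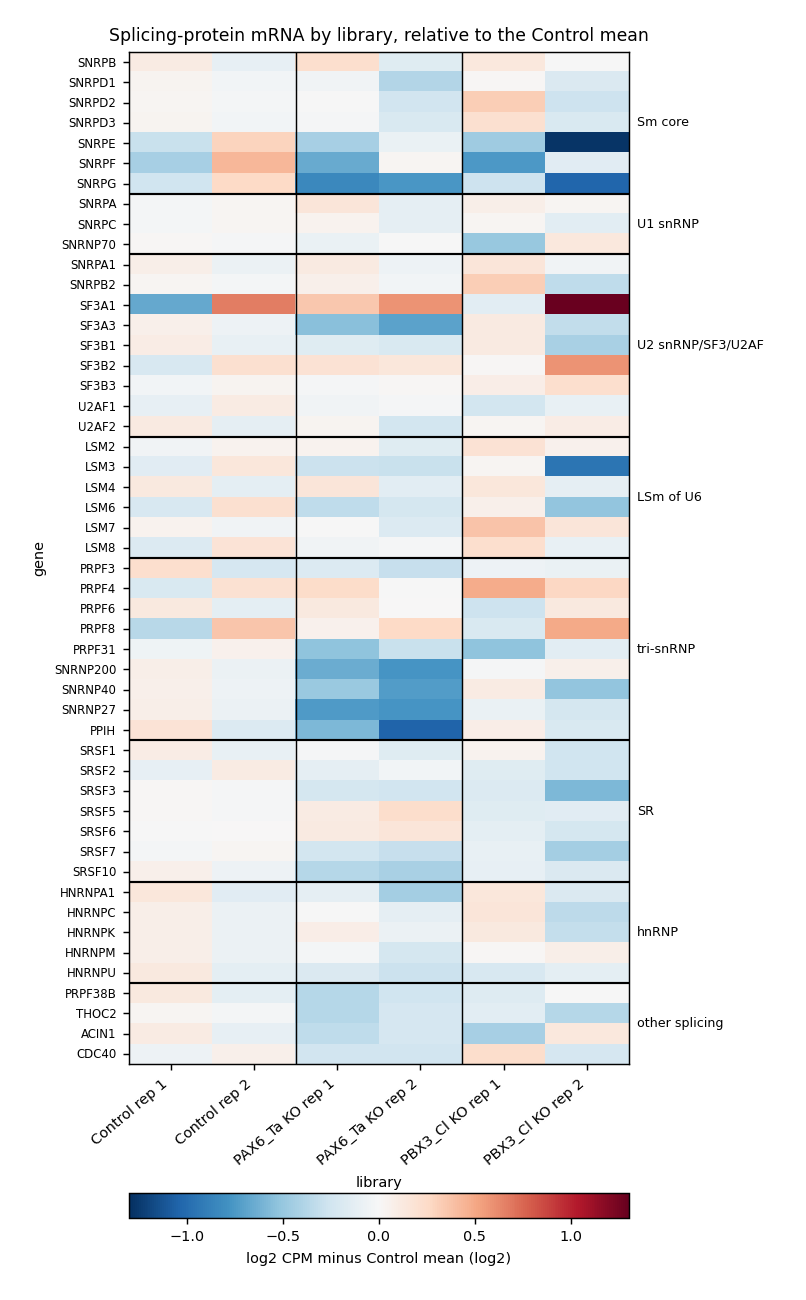
Level of each of the 50 splicing genes (rows, by role) in each of the 6 libraries (columns), as log2 CPM minus the mean of the 2 Control libraries. Most rows are pale. The tri-snRNP genes SNRNP200, SNRNP40, SNRNP27 and PPIH are darker blue in both PAX6_Ta KO libraries, as are the Sm gene SNRPG and the U2 gene SF3A3. SF3A1 and PRPF8 are higher in replicate 2 than in replicate 1 of every group.

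In both knockout groups most splicing genes had estimates near their Control level, although differences within the intervals could not be resolved. Against Control, no splicing gene rose in PAX6_Ta KO and 2 fell, both of them proteins of the tri-snRNP: PPIH, a cyclophilin of the U4/U6 snRNP, and SNRNP27, a small protein of the tri-snRNP. By the same test, edgeR's quasi-likelihood test with a Benjamini-Hochberg adjusted p below 0.05, 7.21% of the 20746 tested genes rose in this comparison and 4.21% fell. At an unadjusted p below 0.05 edgeR gave 0 higher and 7 lower members, 14% of the 50, where the shares of all genes were 12.6% and 10.1%. DESeq2 called 0 higher and 3 lower, adding SNRNP200, where it called 7.16% and 4.11% of all genes. The median log2 fold change of the 50 members was -0.11, against -0.02 for all tested genes, and 36 members lay below 0, as did 51.8% of all genes. In 44 members the fold change was smaller than 0.5 on the log2 scale in either direction, and in 42 the 95% interval stayed within 1.

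In PBX3_Cl KO no splicing gene passed the test in either direction, where 6.28% of all tested genes rose and 2.69% fell. At an unadjusted p below 0.05 edgeR gave 0 higher and 2 lower members, the Sm genes SNRPE and SNRPG, where the shares of all genes were 12.6% and 7.07%. DESeq2 called 0 in either direction, where it called 6.33% of all genes higher and 2.74% lower. The median of the members was -0.08, against -0.01 for all tested genes, and 31 members lay below 0, as did 50.9% of all genes. In 47 members the fold change was smaller than 0.5, and in 46 the interval stayed within 1. Set directly against PBX3_Cl KO, PAX6_Ta KO had no higher and 2 lower members, SNRNP200 and PPIH, where 5.26% of all tested genes were called higher and 6.71% lower. The unadjusted test gave 0 higher and 4 lower members, against 10.9% and 13.4% of all genes, and DESeq2 called 0 and 1, against 5.29% and 6.56%. The member median was -0.08 with 36 members below 0, as were 50.5% of all genes. The comparisons with Control share its libraries, so their values are not independent.

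The replicate numbers were taken to pair the libraries, because differences between replicates 1 and 2 correlated between groups, and entering the number as a block moved the counts of lower members. With the block, edgeR called 5 members lower in PAX6_Ta KO than in Control (SF3A3, SNRNP200, SNRNP40, SNRNP27 and PPIH), where 7.33% of all genes were called lower. It called 4 lower in PAX6_Ta KO than in PBX3_Cl KO (SF3A3, SNRNP200, SNRNP27 and PPIH), where the share of all genes was 10.6%. It called no member higher in any comparison, where 9.78%, 9.26% and 8.06% of all genes were called higher in PAX6_Ta KO and PBX3_Cl KO against Control and between the knockouts. In PBX3_Cl KO against Control it called no member lower, where the share of all genes was 4.22%.

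Counted by overlap of the libraries, both PAX6_Ta KO libraries lay below both Control libraries for 19 of 50 members and above them for 2, where 28% and 27% of all tested genes did so. The corresponding PBX3_Cl KO counts were 11 below and 5 above, where 20.6% and 23.5% of all genes did so. Between the knockouts, PAX6_Ta KO lay below PBX3_Cl KO for 13 members and above it for 5, against 25.6% and 24.1% of all genes.

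**Figure D2:**
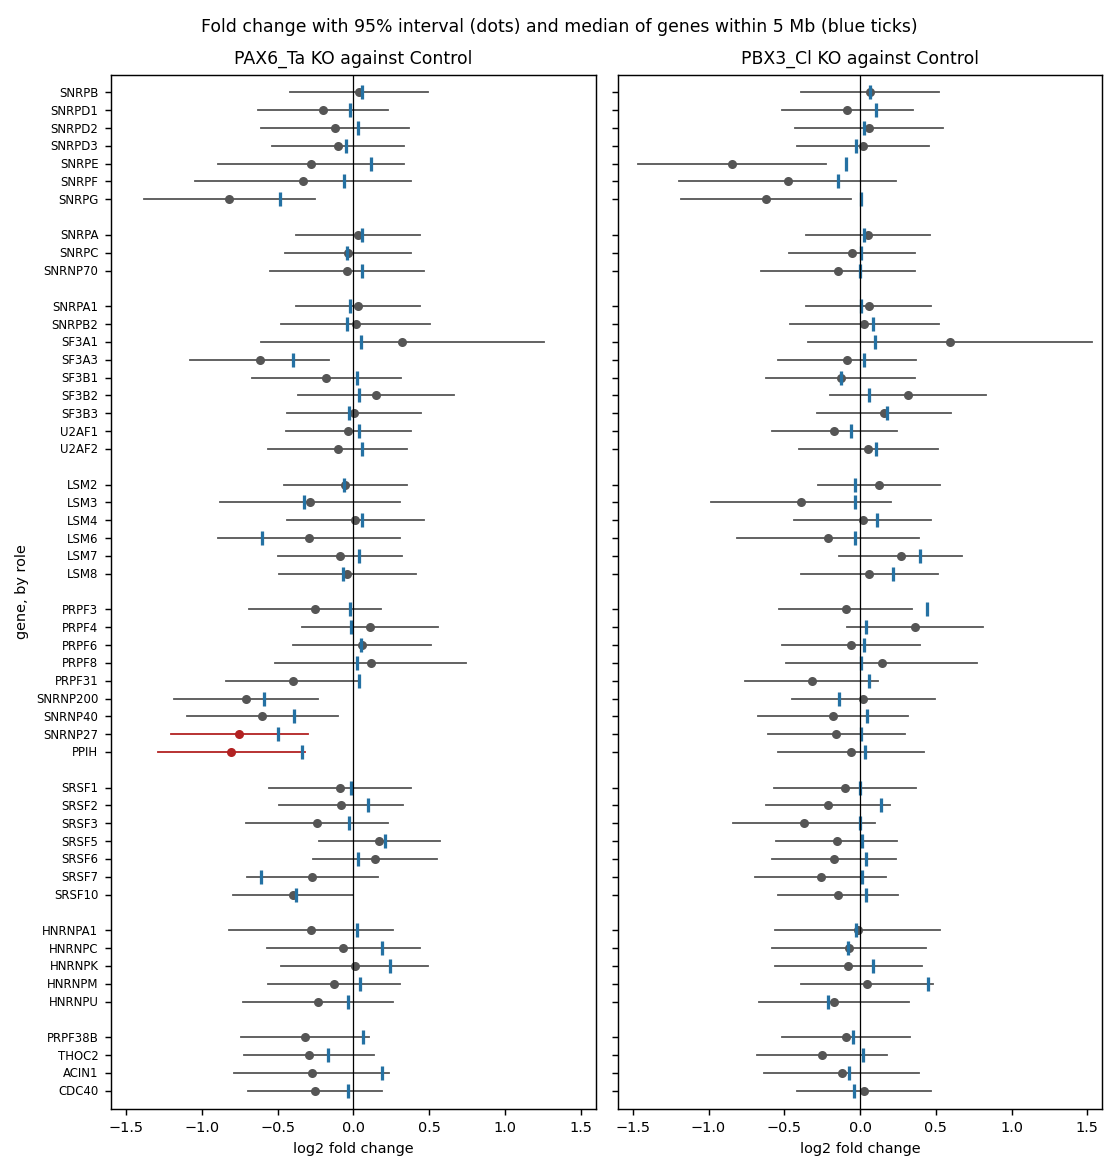
Log2 fold change of each splicing gene against Control (dots) with its 95% interval (lines), for PAX6_Ta KO on the left and PBX3_Cl KO on the right; members with an adjusted p below 0.05 are red and blue ticks give the median of the genes within 5 Mb. Only SNRNP27 and PPIH are red, and in the left panel the lowest dots sit beside blue ticks that are also left of 0.

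Every member called without the block in the fit of all 6 libraries belonged to the U4/U6 and U5 tri-snRNP. These were 2 lower members in PAX6_Ta KO against Control and 2 against PBX3_Cl KO, where 4.21% and 6.71% of all tested genes were called lower. SF3A3 and SNRPG, of other lists, passed in other settings given below. The 9 tri-snRNP genes had a median log2 fold change of -0.40 in PAX6_Ta KO and -0.06 in PBX3_Cl KO. With the median of the genes within 5 Mb taken out, an alternative described below, the medians were -0.21 and -0.09. In PAX6_Ta KO 5 of the 9 lay below Control without overlap, where 28% of all tested genes did. PPIH measured 112 and 87.9 CPM in Control, 66.5 and 48.2 in PAX6_Ta KO and 106 and 86.7 in PBX3_Cl KO. Both PAX6_Ta KO libraries thus lay below all other libraries. In the fit PPIH fell to 57.2% of Control in PAX6_Ta KO, with a log2 fold change of -0.81 ± 0.22 (SE; edgeR adjusted p = 0.0353), and against PBX3_Cl KO the difference was -0.75 (edgeR adjusted p = 0.0482). In PBX3_Cl KO against Control it was -0.06, with a 95% interval of -0.54 to 0.42. Without PAX6_Ta KO replicate 2 the fall was -0.59, and without Control replicate 1 it was -0.62, with edgeR adjusted p of 0.347 and 0.259. The difference from PBX3_Cl KO was -0.53 without PAX6_Ta KO replicate 2 and -0.56 without PBX3_Cl KO replicate 1 (edgeR adjusted p of 0.438 and 0.162).

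SNRNP27 measured 19.5 and 17.6 CPM in Control, 11.1 and 10.9 in PAX6_Ta KO and 17.5 and 15.9 in PBX3_Cl KO. Again the PAX6_Ta KO libraries lay below the rest, and the 2 libraries of each group differed little. The log2 fold change against Control was -0.75 ± 0.21 (SE; edgeR adjusted p = 0.0353), and leaving out any one Control or PAX6_Ta KO library gave -0.84 to -0.68 with edgeR adjusted p of 0.105 to 0.253. Against PBX3_Cl KO it was -0.60 (edgeR adjusted p = 0.0896, and 0.0358 with the replicate block).

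SNRNP200, the RNA helicase that unwinds U4 from U6, had the highest Control mean per length of the tri-snRNP genes, 154 RPKM, with PPIH next at 133 and overlapping it between libraries. It measured 1165 and 1045 CPM in Control, 704 and 650.0 in PAX6_Ta KO and 1092 and 1154 in PBX3_Cl KO. The PAX6_Ta KO libraries lay below all the others, and the other groups overlapped. The log2 difference was -0.73 ± 0.22 (SE) against PBX3_Cl KO (edgeR adjusted p = 0.0486) and -0.71 ± 0.22 against Control (edgeR adjusted p = 0.0579, and 0.00889 with the replicate block). Leaving out any one library ended the call against PBX3_Cl KO, with edgeR adjusted p of 0.0659 to 0.328 and differences of -0.79 to -0.67.

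SNRNP40, a WD-repeat protein of the U5 snRNP, was called lower than Control in PAX6_Ta KO with the replicate block but not without it in the fit of all 6 libraries, and was added to the named genes after its values were seen. It measured 174 and 158 CPM in Control, 119 and 100.1 in PAX6_Ta KO and 178 and 116 in PBX3_Cl KO. The PAX6_Ta KO values were below those of Control without overlap, and one PBX3_Cl KO library reached down among them. The log2 difference from Control was -0.60 ± 0.23 (SE; edgeR adjusted p = 0.128, and 0.0288 with the block). It also passed with only the 2 groups fitted (edgeR adjusted p = 0.0382) and without either PBX3_Cl KO library (0.0365 and 0.0325). Of the other tri-snRNP genes, PRPF31, which holds the U4 snRNA, had -0.40 in PAX6_Ta KO and -0.32 in PBX3_Cl KO, and its Control libraries (51.3 and 55.3 CPM) lay above those of both knockouts (37.1 and 43.7 CPM in PAX6_Ta KO, 37 and 48.4 CPM in PBX3_Cl KO). PRPF8, the scaffold of the catalytic centre, lay at 440 and 727 CPM in Control, 588 and 675 in PAX6_Ta KO and 492 and 797 in PBX3_Cl KO, so its spread between replicates covered any difference between groups. PRPF3, PRPF4 and PRPF6 had log2 differences of -0.25 to 0.11 in PAX6_Ta KO.

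**Figure D3:**
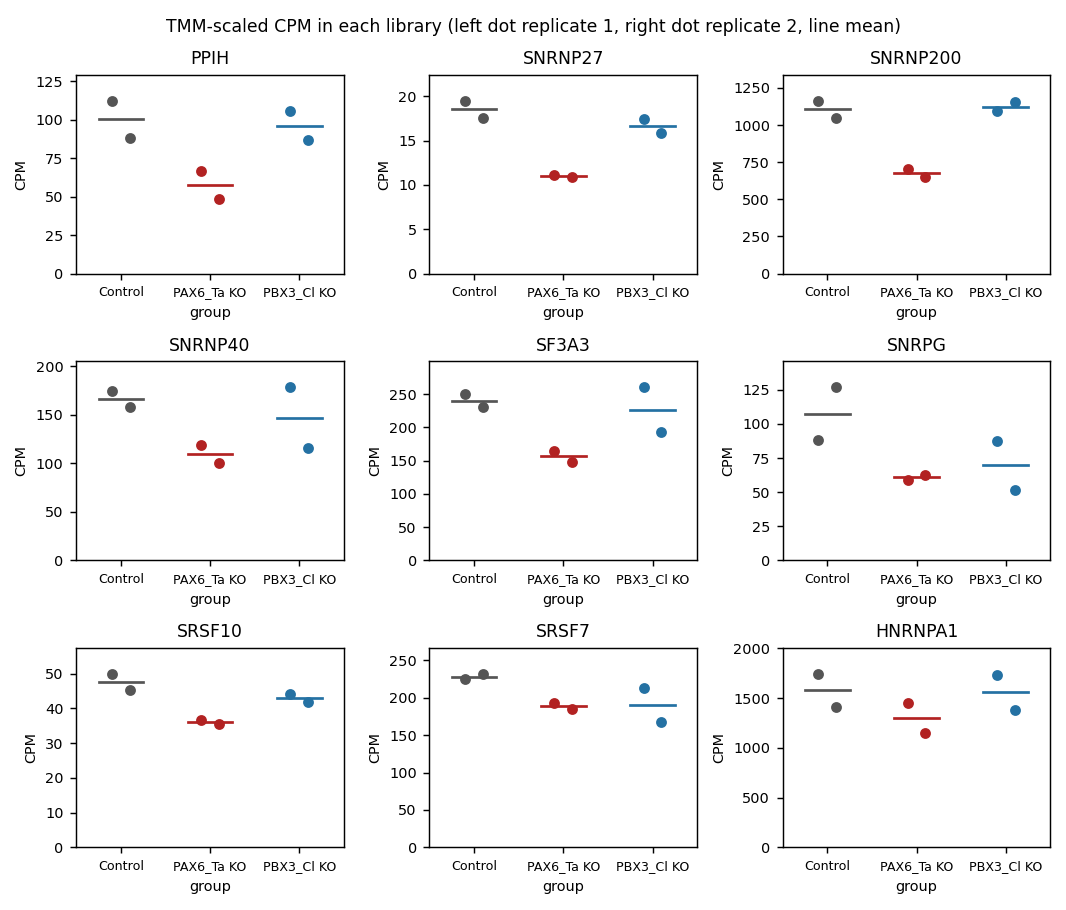
CPM of 9 splicing genes in each library, by group (left dot replicate 1, right dot replicate 2, horizontal line the mean of the group; axes start at 0). PPIH, SNRNP27, SNRNP200, SF3A3 and SRSF10 lie lower in both PAX6_Ta KO libraries than in any other library, whereas HNRNPA1 overlaps between groups.

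The promoters of the 3 called genes are shown because all were lower in PAX6_Ta KO in at least one comparison. Each is the 250 bases before the annotated start, taken from RefSeq on GRCh38.p14 and written 5′ to 3′ on the strand of the gene, with the letters CCGGAAG or their reverse complement CTTCCGG, the core bound by ETS factors, in capitals. The windows lie at chr1:42658173-42658422 (plus strand) for PPIH, chr2:69893706-69893955 (plus strand) for SNRNP27 and chr2:96305547-96305796 (minus strand) for SNRNP200.
PPIH: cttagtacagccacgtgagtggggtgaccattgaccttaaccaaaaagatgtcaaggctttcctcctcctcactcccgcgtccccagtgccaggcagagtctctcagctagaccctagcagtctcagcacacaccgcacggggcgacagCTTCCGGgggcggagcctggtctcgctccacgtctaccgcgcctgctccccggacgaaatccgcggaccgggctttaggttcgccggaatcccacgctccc
SNRNP27: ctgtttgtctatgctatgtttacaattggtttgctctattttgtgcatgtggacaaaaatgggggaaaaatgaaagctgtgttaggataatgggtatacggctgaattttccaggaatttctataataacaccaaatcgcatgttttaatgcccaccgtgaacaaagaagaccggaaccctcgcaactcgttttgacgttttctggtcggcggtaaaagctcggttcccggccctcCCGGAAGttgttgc
SNRNP200: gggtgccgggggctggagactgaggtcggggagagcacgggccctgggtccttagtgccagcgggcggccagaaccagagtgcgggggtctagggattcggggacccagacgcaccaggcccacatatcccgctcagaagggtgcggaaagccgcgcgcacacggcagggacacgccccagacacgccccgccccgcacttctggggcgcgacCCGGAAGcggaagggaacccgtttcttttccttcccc

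Each of the 3 held the motif once, starting 101 bases before the start in PPIH, 14 in SNRNP27 and 37 in SNRNP200. GC content differed widely, at 62.8%, 44% and 70.0% in the same order. The motif was picked after the sequences had been read. RefSeq promoters were matched for 44 of the 50 members, at 54 annotated starts, and 20 of these starts (37%) held it on either strand, against 8.52% of 35116 starts of all genes. The motif was thus found at starts of 18 members, most of which were not called. The TATA box letters TATAAA, or their reverse complement, stood in 5 of the 54 member starts (9.26%) and in 10.7% of all starts. These matches describe the letters only.

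The U2 snRNP, SF3 and U2AF genes, which recognise the branch point and the end of the intron, had medians near 0, at 0.002 in PAX6_Ta KO and 0.05 in PBX3_Cl KO. No member of the group was called without the block in the fit of all 6 libraries. SF3A3, a subunit of the SF3a complex of U2, measured 251 and 230.2 CPM in Control, 165 and 148 in PAX6_Ta KO and 260.3 and 193 in PBX3_Cl KO. It lay lower in both PAX6_Ta KO libraries than in any other, with a log2 difference from Control of -0.62 ± 0.21 (SE; edgeR adjusted p = 0.085, and 0.0179 with the replicate block). The difference from PBX3_Cl KO was -0.53 (edgeR adjusted p = 0.134, and 0.0343 with the block), and was -0.26 without PBX3_Cl KO replicate 1 and -0.74 without PBX3_Cl KO replicate 2 (edgeR adjusted p of 0.418 and 0.0325). The difference from Control also passed with only the 2 groups fitted (edgeR adjusted p = 0.0307) and without either PBX3_Cl KO library (0.0295 and 0.0262). SF3A1, another subunit of SF3a, had 29.7 and 75 CPM in Control, 60.3 and 70.6 in PAX6_Ta KO and 42.9 and 115 in PBX3_Cl KO. Its replicates differed more than its groups, as did those of SF3B2 in Control and PBX3_Cl KO. SF3B1, which holds the branch-point helix, and U2AF1 had differences of -0.18 and -0.03 in PAX6_Ta KO and -0.13 and -0.17 in PBX3_Cl KO.

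Among the 7 Sm core genes, SNRPG had the smallest p. It measured 88.3 and 127 CPM in Control, 59.2 and 62.7 in PAX6_Ta KO and 87.9 and 51.9 in PBX3_Cl KO. All knockout libraries lay below both Control libraries, by a wide gap in 3 of them and by less than 1 CPM in PBX3_Cl KO replicate 1. The log2 differences from Control were -0.82 ± 0.26 (SE) and -0.62 ± 0.26, with edgeR adjusted p of 0.0644 and 0.194. These values turned on single libraries. In PAX6_Ta KO the difference was -1.06 without Control replicate 1 (edgeR adjusted p = 0.0125) and -0.54 without Control replicate 2 (0.387), and it also passed without either PBX3_Cl KO library (0.0173 and 0.0165), with only the 2 groups fitted (0.021) and with no filter on low counts (0.0086). In PBX3_Cl KO it was -1.09 without PBX3_Cl KO replicate 1 (edgeR adjusted p = 0.0231), -0.29 without PBX3_Cl KO replicate 2 (0.491) and -0.34 without Control replicate 2 (0.824). SNRPG has 20 named pseudogene entries in the table, whose counts came to 11.8% of its own on average, and reads of such near-identical copies may have been shared. SNRPE had -0.28 in PAX6_Ta KO and -0.85 in PBX3_Cl KO (edgeR adjusted p = 0.0966), with 23.6 and 13.4 CPM in PBX3_Cl KO against 26.7 and 39.7 in Control. SNRPB, SNRPD1, SNRPD2 and SNRPD3 lay between -0.20 and 0.07 on the log2 scale against Control in both knockouts, and none was called.

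The U1 genes lay near Control. SNRPA, SNRPC and SNRNP70, the proteins specific to the U1 snRNP, had log2 differences of -0.04 to 0.03 in PAX6_Ta KO and -0.14 to 0.05 in PBX3_Cl KO. SNRNP70 measured 397 and 391 CPM in Control, 372 and 392.0 in PAX6_Ta KO and 279 and 434 in PBX3_Cl KO. The 2 PBX3_Cl KO libraries lay on either side of all the others. Its 95% interval against Control was -0.55 to 0.46 in PAX6_Ta KO and -0.65 to 0.36 in PBX3_Cl KO, so differences within these bounds could not be resolved.

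The LSm genes had medians of -0.07 in PAX6_Ta KO and 0.04 in PBX3_Cl KO, and none was called. LSM7 measured 58.8 and 54.9 CPM in Control, 56.8 and 50.2 in PAX6_Ta KO and 73.2 and 63.6 in PBX3_Cl KO. Both PBX3_Cl KO libraries were above all the others, and the difference of PAX6_Ta KO from PBX3_Cl KO was -0.35 ± 0.19 (SE; edgeR adjusted p = 0.283). LSM3 and LSM6 lay below Control without overlap in PAX6_Ta KO, each at -0.29, where 28% of all tested genes lay below without overlap.

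No SR gene was called in any comparison, with or without the block. In PBX3_Cl KO all 7 lay below Control, from -0.37 (SRSF3) to -0.10 (SRSF1) with a median of -0.17, as did 50.9% of all tested genes. For 6 of the 7 both libraries were below both Control libraries, as they were for 20.6% of all genes. Each 95% interval included 0. In PAX6_Ta KO 5 of the 7 lay below Control, as did 51.8% of all genes. SRSF5 and SRSF6 were above it without overlap, as were 27% of all genes. SRSF6, which binds exonic enhancers, measured 219 and 219.9 CPM in Control, 238 and 245 in PAX6_Ta KO and 201 and 188 in PBX3_Cl KO. The 3 groups did not overlap, with PAX6_Ta KO the highest and PBX3_Cl KO the lowest. Directly between the knockouts SRSF6 differed by 0.32 ± 0.19 (SE; edgeR adjusted p = 0.351) and SRSF5 by 0.32 ± 0.18 (edgeR adjusted p = 0.325), so neither difference passed the test. SRSF5 and SRSF6 were picked out after their values had been seen. The count of 7 below Control in PBX3_Cl KO was the same with upper-quartile factors, relative log expression factors and DESeq2, and was 6 without Control replicate 1 or without PBX3_Cl KO replicate 2.

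SRSF10 had the smallest p of the SR genes. It measured 49.8 and 45.3 CPM in Control, 36.7 and 35.4 in PAX6_Ta KO and 44.2 and 41.8 in PBX3_Cl KO. The 3 groups did not overlap, with Control the highest, PBX3_Cl KO between and PAX6_Ta KO the lowest, and the PAX6_Ta KO difference from Control was -0.40 ± 0.18 (SE; edgeR adjusted p = 0.219).

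The hnRNP genes showed no call in either direction. HNRNPA1 measured 1741 and 1414 CPM in Control, 1448 and 1152 in PAX6_Ta KO and 1738 and 1381 in PBX3_Cl KO. In each group replicate 1 was the higher library, and the groups overlapped. The log2 differences from Control were -0.28 ± 0.25 (SE) in PAX6_Ta KO and -0.02 ± 0.25 in PBX3_Cl KO, with edgeR adjusted p of 0.609 and 0.989. HNRNPA1 has 75 pseudogene entries, whose counts came to 3.05% of its own. HNRNPC, HNRNPK and HNRNPM lay between -0.13 and 0.05 against Control in both knockouts, and HNRNPU had -0.24 and -0.17.

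The 4 other genes lay below Control without overlap in PAX6_Ta KO, from -0.32 to -0.25, with none called. Of all tested genes, 28% lay below without overlap in that comparison. PRPF38B, which joins the spliceosome before its activation, measured 198 and 167 CPM in Control, 140.5 and 151 in PAX6_Ta KO and 162 and 181 in PBX3_Cl KO. The PAX6_Ta KO libraries were the lowest, by -0.32 ± 0.19 (SE; edgeR adjusted p = 0.385). THOC2, the scaffold of the THO complex in mRNA export, ACIN1, which binds the exon junction complex, and CDC40, a second-step splicing factor, had -0.29, -0.27 and -0.25 there, and -0.25, -0.12 and 0.02 in PBX3_Cl KO.

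The splicing genes with the smallest p in PAX6_Ta KO against Control came from few stretches of the genome. In the GRCh37 annotation PPIH lies at chr1:43124006-43142429, SNRNP40 at chr1:31732415-31769635, SF3A3 at chr1:38422647-38455747 and SRSF10 at chr1:24290837-24307417, all on 1p. SNRNP27 at chr2:70121088-70132707 and SNRPG at chr2:70508494-70520872 lie on 2p, less than 1 Mb apart, and SNRNP200 at chr2:96940076-96987009 lies on 2q. These are the 7 members with an unadjusted p below 0.05. Their neighbours were low too: the median log2 fold change in PAX6_Ta KO was -0.31 over 757 tested protein-coding genes of 1p and -0.49 over 355 of 2p, against 0.0004 and -0.02 in PBX3_Cl KO. On 2q as a whole the median was -0.03 over 521 genes, but within 5 Mb of SNRNP200 it was -0.59 over 51 genes. PRPF31, about as low as SRSF10 but not among the 7, lies on 19q, where the arm median in PAX6_Ta KO was 0.06.

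Of the genes within 5 Mb, 89 of 117 around PPIH, 68 of 80 around SNRNP27 and 48 of 51 around SNRNP200 lay below Control in PAX6_Ta KO, shares of 76.1%, 85.0% and 94.1%, where 51.8% of all tested genes did. In PBX3_Cl KO the shares were 42.7%, 48.8% and 70.6%, against 50.9% of all genes. All 8 members on 1p and 2p lay below Control in PAX6_Ta KO, with a median of -0.61, and the 42 members elsewhere had a median of -0.08 with 28 below 0. Those 42 include SNRNP200, and also LSM6 on 4q and LSM3 on 3p, whose neighbours had medians of -0.61 and -0.33. With these medians taken out, LSM6 had 0.31 and LSM3 0.04. Other arms were shifted in PAX6_Ta KO too, among them 4q (-0.49), 8p (-0.47), 7p (0.65) and 11p (0.62). In PBX3_Cl KO the 8 also lay below 0, at a median of -0.15, and the other 42 had a median of -0.06. The grouping by arm was made after the values were seen.

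**Figure D4:**
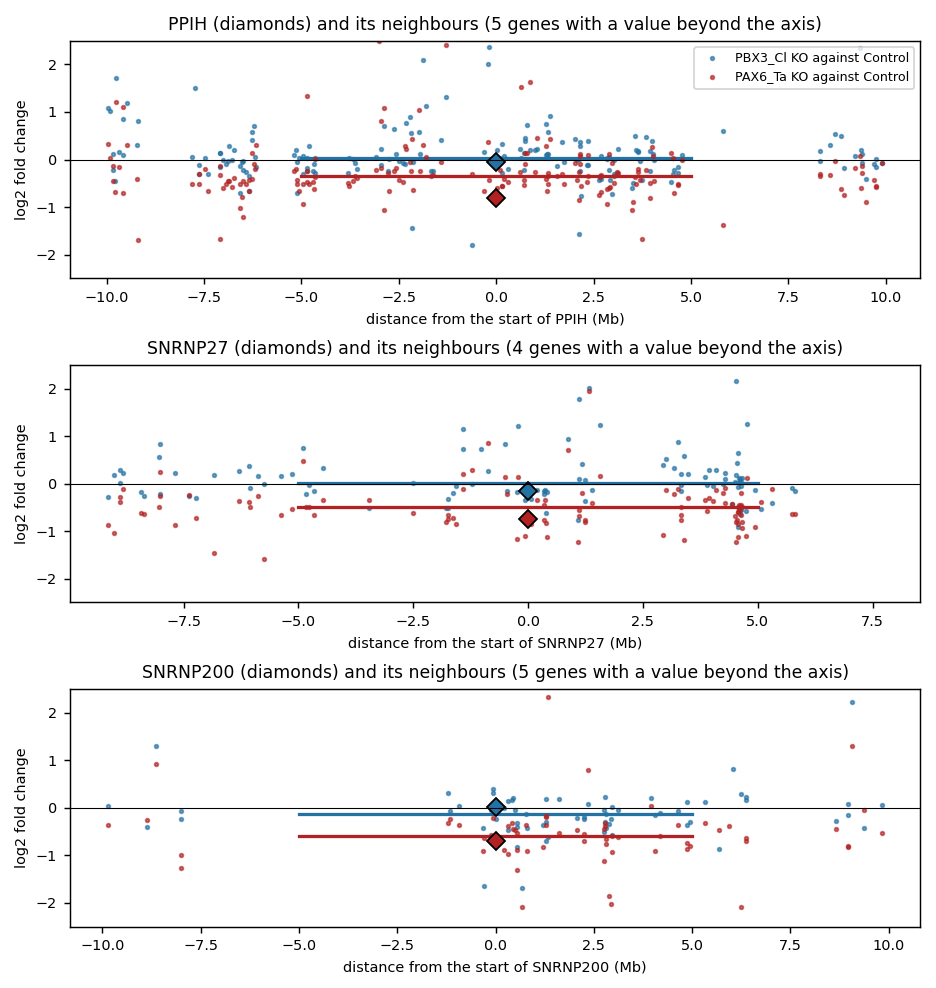
Log2 fold change against Control of the tested protein-coding genes within 10 Mb of PPIH, SNRNP27 and SNRNP200, by distance along the chromosome from the start of each gene (Mb; 5, 4 and 5 genes lie beyond the vertical axis), for PAX6_Ta KO (red) and PBX3_Cl KO (blue). Diamonds are the named gene and horizontal lines the medians within 5 Mb, which for PAX6_Ta KO are -0.34, -0.50 and -0.59 and for PBX3_Cl KO 0.03, 0.003 and -0.14.

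With the median of the neighbours within 5 Mb taken out by an offset in the fit, an alternative chosen after the data were seen, no member was called lower in any comparison. PPIH then had -0.47 (edgeR adjusted p = 0.293), SNRNP27 -0.26 (0.635) and SNRNP200 -0.12 (0.874) against Control. The 8 members on 1p and 2p kept a median of -0.24 relative to their neighbours, with 7 of 8 below 0, and the exception was SRSF7. SRSF7, an SR protein, had -0.27 against Control beside a neighbourhood median of -0.61 over 29 genes, and so lay 0.34 above its neighbours (edgeR adjusted p = 0.435). PRPF38B, also on 1p, had -0.32 beside a neighbourhood median of 0.06. With the median of the whole arm taken out instead, PPIH had -0.49 (edgeR adjusted p = 0.253), SNRNP27 -0.26 (0.618) and SNRNP200 -0.68 (0.0811), and again no member was called. DNA copy number was not measured in these data, so its part was not tested.

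Over the 50 members, the fold change in PAX6_Ta KO and the median of the neighbours correlated with a Pearson's r of 0.70, and in PBX3_Cl KO with 0.35. The points share libraries, and members that lie close together share neighbours, so r is given as a description. The members furthest from their neighbours in PBX3_Cl KO were SNRPE and SNRPG, at -0.75 and -0.63 relative to them, and PRPF3, at -0.10 against Control beside a median of 0.44. LSM4, LSM7 and HNRNPM on 19p, where the arm median in PBX3_Cl KO was 0.34, had 0.02, 0.27 and 0.05.

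**Figure D5:**
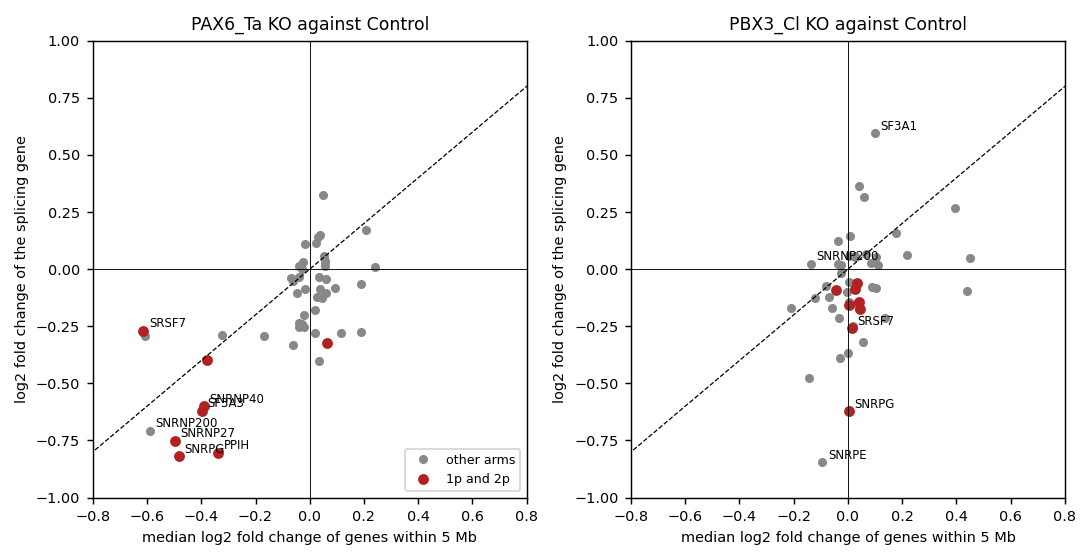
Log2 fold change of each splicing gene against Control (vertical axis) by the median of the genes within 5 Mb (horizontal axis), with members on 1p and 2p in red and the dashed line marking equality. In PAX6_Ta KO the lowest members lie to the left, beside low neighbours (r = 0.70 over 50 members), whereas in PBX3_Cl KO the medians of the neighbours of the lowest members, SNRPE and SNRPG, lie near 0.

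Other genes of the splicing pathway were read from lists that hold no member. Without the block, 7.21% of all tested genes rose and 4.21% fell in PAX6_Ta KO, and 6.28% rose and 2.69% fell in PBX3_Cl KO. With it the shares were 9.78% and 7.33% in PAX6_Ta KO, and 9.26% and 4.22% in PBX3_Cl KO. Of 28 Prp19 and catalytic-step proteins, CWC22, which recruits EIF4A3, rose by 0.72 in PAX6_Ta KO (edgeR adjusted p = 0.0372) beside a neighbourhood median of 0.94, and BUD31 rose by 0.87 in PBX3_Cl KO (edgeR adjusted p = 0.013) beside one of 0.38. No other gene of that list was called against Control without the block, which added PRPF38A, lower in PAX6_Ta KO (edgeR adjusted p = 0.0181), and XAB2, higher in PBX3_Cl KO (0.0431), both named after their values were seen.

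Of 19 tested further SR proteins and SR kinases, SRSF11 fell by 0.80 in PAX6_Ta KO (edgeR adjusted p = 0.0156). It lies on 1p, with a neighbourhood median of -0.64. Of 26 further hnRNPs and related proteins, HNRNPD, which binds AU-rich elements, fell by 0.70 (edgeR adjusted p = 0.0456) beside a median of -0.52 on 4q. Of 18 snRNP assembly proteins, GEMIN6 of the SMN complex, on 2p, fell by 0.88 (edgeR adjusted p = 0.0491) beside a median of -0.46. Without the block none of these 3 lists had a call in PBX3_Cl KO. With it the further SR list had 3 lower genes in PAX6_Ta KO and 1 higher in PBX3_Cl KO (SRPK2), the further hnRNP list had 2 lower and 1 lower (HNRNPDL in both, with HNRNPD in PAX6_Ta KO), and the assembly list had GEMIN6 alone. For comparison, the block called 7.33% of all genes lower in PAX6_Ta KO, and 9.26% higher and 4.22% lower in PBX3_Cl KO. SRPK2 and HNRNPDL were named after their values were seen. With or without the block, none of 17 tested exon junction and TREX proteins was called against Control in either knockout. With the neighbours' median taken out, the adjusted p of the 5 calls made without the block (4 in PAX6_Ta KO and BUD31 in PBX3_Cl KO) lay between 0.187 and 0.771. Directly between the knockouts and without the block, BUD31, LUC7L2, GEMIN6 and LSM10 were called lower in PAX6_Ta KO, and no gene of these lists was called higher. Of all tested genes, 6.71% were called lower and 5.26% higher in that comparison.

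The snRNAs themselves are short, lack a poly(A) tail and are encoded by near-identical copies, so their counts were low and the copies may share reads. Of 22 listed, 13 passed the filter, with list medians of -1.40 in PAX6_Ta KO and -1.07 in PBX3_Cl KO. Of these, 4 fell in PAX6_Ta KO and none was called in PBX3_Cl KO, where 4.21% and 2.69% of all genes fell. With the replicate block 7 were called lower in PAX6_Ta KO, where 7.33% of all genes were. The block also called 4 lower in PBX3_Cl KO (RNU1-1, RNU4-2, RNU5B-1 and RNU4ATAC, with edgeR adjusted p of 0.037 to 0.046), where 4.22% of all genes were. At an unadjusted p below 0.05, 9 and 6 were lower, against 10.1% and 7.07% of all genes. RNU5F-1, a U5 snRNA on 1p, had counts of 370 and 277 in Control, 67 and 79 in PAX6_Ta KO and 228 and 63 in PBX3_Cl KO. All knockout libraries lay below both Control libraries, and the log2 difference of PAX6_Ta KO from Control was -2.01 ± 0.49 (SE; edgeR adjusted p = 0.019). The other U5 snRNAs that fell, named after their values were seen, were RNU5B-1 at -1.96, RNU5D-1 at -1.40 and RNU5E-1 at -1.26 (edgeR adjusted p of 0.0233, 0.0229 and 0.0418). With the neighbours' median taken out RNU5B-1, on 15q, still passed (edgeR adjusted p = 0.0193), and the 3 on 1p had 0.0527 to 0.206. Summed over the list, the snRNAs measured 34.2 and 37.2 CPM in Control, 19.9 and 21.3 in PAX6_Ta KO and 29.8 and 16.2 in PBX3_Cl KO. Both PAX6_Ta KO sums thus lay below Control. Of the 13, 11 lay below 0 in PAX6_Ta KO and 12 in PBX3_Cl KO, as did 51.8% and 50.9% of all tested genes. The counts of RNU6-2, a U6 snRNA in this sum, overlapped between the groups. They were 366 and 517 in Control, 394 and 650 in PAX6_Ta KO and 424 and 373 in PBX3_Cl KO. RNU6-2 was named after its values were seen. How much small RNA each library retained was not measured, and its part was not tested.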

How the data were processed

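Libraries of total RNA from K562 cells (2 for each of 3 groups) had been prepared with a stranded kit. The authors trimmed reads with Cutadapt (version 3.4), aligned them to GRCh37 (release 75) with STAR and deposited raw read counts per gene with no normalization. The versions of STAR and of the counting step, the strand setting and how multi-mapped reads were counted are not stated in the sources read, so overlapping, antisense and near-identical genes may share reads. The count table holds 4 columns of other samples, which were not used, and the authors' comparison tables (fold changes and p-values) were not used.

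Groups and replicate numbers came from the labels. Genes passing filterByExpr (20746) were fitted with edgeR 4.0.16 under R 4.3.3, using TMM factors, all 6 libraries in 1 quasi-likelihood fit, and Benjamini-Hochberg adjustment over all tested genes (called below 0.05). CPM are TMM-scaled. RPKM used the length of the canonical transcript in GENCODE release 44 lifted to GRCh37, which also gave positions (50262 of 52088 entries placed). DESeq2 (version 1.42.0) and other settings were alternatives. Differences of replicate 2 from replicate 1 correlated across all tested genes at 0.389 (Control and PAX6_Ta KO), 0.210 (Control and PBX3_Cl KO) and 0.379 (the knockouts). Since every pair was above 0.1, the numbers were taken to pair the libraries, although the labels do not say what they mark. Replicates differed by more than sampling noise (chi-square per degree of freedom 47.1, 38.8 and 121), so none was a copy. The scripts were tested on simulated data.

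Named genes were all called members, the member of smallest p in each role list without a call, and the highest and lowest RPKM. Of the other pathway lists, the called genes with the smallest p in each direction were named, and one such result is not reported here. The members and lists were chosen with earlier results of these data known.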

Additional observations from a re-analysis of the deposited data

Results flagged for a closer look

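The 2 knockout groups differed by the direct test for 2 splicing genes, and the effects of cloning and of deletion cannot be told apart. SNRNP200 differed between PAX6_Ta KO and PBX3_Cl KO by -0.73 on the log2 scale (edgeR adjusted p = 0.0486), lower in 2 of 2 PAX6_Ta KO libraries than in either PBX3_Cl KO library. PPIH differed by -0.75 (edgeR adjusted p = 0.0482), likewise in 2 of 2 libraries. Both genes lay among low neighbours in PAX6_Ta KO, and neither was called with the arm or neighbours' median taken out. Groups of 2 libraries were too small for a check of single outlying libraries.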

How the results depend on the processing

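Every call among the members in the fit of all 6 libraries without the block sat near the threshold. Some other settings gave smaller values, such as an edgeR adjusted p of 0.00889 for SNRNP200 against Control with the block. Against Control, the count of lower members in PAX6_Ta KO (2) was 0 with relative log expression factors, 6 with only the 2 groups fitted, 5 with the replicate block, 0 with the arm median and 0 with the neighbours' median taken out, and 0 (without PAX6_Ta KO replicate 2) to 6 (without either PBX3_Cl KO library) leaving out 1 library. Between the knockouts the count (2) was 0 with upper-quartile factors, relative log expression factors, only the 2 groups, or the arm or neighbours' median taken out, 1 with DESeq2 or a minimum of 1 CPM in 2 libraries, 4 with the replicate block, and 0 (without PAX6_Ta KO replicate 2 or PBX3_Cl KO replicate 1) to 3 (without PBX3_Cl KO replicate 2) leaving out 1 library. Counts of higher members (0) ranged from 0 to 1, 0 to 1 and 0 to 2 leaving out 1 library, the maxima without Control replicate 2 for both comparisons with Control and without PBX3_Cl KO replicate 1 between the knockouts. Lower members in PBX3_Cl KO (0) were 1 with no filter and 0 to 3 leaving out 1 library, the maximum without PBX3_Cl KO replicate 1.

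Leaving out 1 library, the member median ranged from -0.192 to -0.0485 in PAX6_Ta KO, -0.208 to 0.0243 in PBX3_Cl KO (above 0 without PBX3_Cl KO replicate 2) and -0.16 to 0.01 between them. The cause of these shifts was not tested. The replicate block changed no call of a member other than those given in the report. A lone library left in a group was assumed to vary like the others. With 2 libraries a group, differences within the printed intervals could not be resolved, and low counts limit the snRNAs most.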
